A study of Mus musculus with 6 samples.

Results

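Airway mucus is built from secreted gel-forming mucins, and 10 mouse genes of the mucus and goblet cell programme were followed here through 6 whole-lung RNA sequencing libraries. The genes were chosen by name, as known parts of that programme, with earlier results of these data known, and each of the 10 symbols matched exactly 1 of the 55573 Ensembl genes in the deposited table. They comprise the secreted mucin genes Muc5ac and Muc5b, the membrane mucin gene Muc4, the transcription factor genes Spdef and Foxa3, the mucin folding gene Agr2, and the genes Clca1, Fcgbp, Tff1 and Tff2, whose products are secreted into mucus. In the SS-31H_CS group (3 libraries) the mice breathed cigarette smoke and also received SS-31, a peptide antioxidant that concentrates in mitochondria, at 5 mg/kg once a day. In the CS group (3 libraries) they breathed smoke without SS-31, in 2 sessions of 75 min on 5 days of each of 4 weeks. All mice were wild-type C57BL/6 animals of 9 to 10 weeks, and the tissue was lung. The labels state that schedule for CS alone. No smoke-free lungs are among the libraries, so no unexposed level stands beside these values. They name no batch, and they do not say that each library came from a separate mouse, so p-values describe the spread between these libraries.

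Goblet cells store mucins in granules and release them onto the airway surface, where cilia carry the gel out of the lung. In mice, secretory cells of the healthy airway make Muc5b continuously and very little Muc5ac, and interleukin 13, acting through STAT6, is the best known inducer of Muc5ac, Clca1 and the other goblet cell genes. SPDEF and FOXA3 are transcription factors that drive this programme in airway secretory cells. AGR2 is a protein disulfide isomerase of the endoplasmic reticulum that mucins need for folding.

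Total counts ran from 15611925 to 16942014 in the SS-31H_CS libraries and from 17056917 to 17360052 in the CS libraries. A total of 3 counts, taken as the detection floor, equalled 0.172 to 0.185 CPM, which are counts scaled to a common library total. The tissue carried the markers of lung: alveolar type 2 cell markers summed to 17682 to 23573 CPM in SS-31H_CS lungs and to 19920 to 22140 CPM in CS lungs. Whole lung mixes cell types, so fewer cells of a type and less RNA per cell cannot be told apart. SS-31H_CS replicate 3, at 44.8, and CS replicate 3, at -61.3, lay at opposite ends of the first principal component, but for the mucus genes another library stood apart. That library was SS-31H_CS replicate 2, and the comparison of each tested mucus gene and the median of each pathway list are given with and without it.

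Upstream sequence is shown for the pair of genes whose groups did not overlap, Spdef and Muc4, and for Agr2, whose direction turned on 1 library. Groups did not overlap in 26.1% of all tested genes, so that trait served only to choose which sequences to print. The table (GRCm38.p6) held 5 of the 10 members, Agr2, Fcgbp, Foxa3, Muc4 and Spdef. The sequences are the 250 bases before the start of the gene in RefSeq, 5′ to 3′ on the gene's strand, for Spdef (chr17:27728952-27729201, minus strand), Muc4 (chr16:32735636-32735885, plus strand) and Agr2 (chr12:35992675-35992924, plus strand). Capitals mark every match to a forkhead word (on either strand, the word TGTTTAC, its partner TGTTTGC, the related word TATTTAC and the related word TATTTGC), to the SPDEF core word CCGGAT (either strand), or to TATAAA on the gene's own strand. The 3 windows held no overlapping matches. The RefSeq start of Muc4 is that of the GENCODE gene given below, and those of Agr2 and Spdef lie 18 and 4 bases inside theirs.
Spdef: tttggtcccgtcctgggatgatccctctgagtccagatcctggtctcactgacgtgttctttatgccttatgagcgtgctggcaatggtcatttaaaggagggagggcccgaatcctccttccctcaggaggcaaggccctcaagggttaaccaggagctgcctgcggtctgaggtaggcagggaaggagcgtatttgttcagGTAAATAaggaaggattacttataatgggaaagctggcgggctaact
Muc4: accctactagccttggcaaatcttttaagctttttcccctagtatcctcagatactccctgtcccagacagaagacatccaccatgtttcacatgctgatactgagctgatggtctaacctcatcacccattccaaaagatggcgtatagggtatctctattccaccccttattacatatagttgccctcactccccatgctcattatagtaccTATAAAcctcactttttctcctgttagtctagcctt
Agr2: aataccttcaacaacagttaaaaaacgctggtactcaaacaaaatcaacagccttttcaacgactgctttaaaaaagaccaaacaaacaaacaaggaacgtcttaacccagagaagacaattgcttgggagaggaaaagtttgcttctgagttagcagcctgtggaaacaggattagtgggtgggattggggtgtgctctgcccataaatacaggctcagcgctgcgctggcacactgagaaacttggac

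The Spdef window held a forkhead word from 47 to 41 bases before the RefSeq start, and the Muc4 window held TATAAA from 36 to 31 bases before it. Of all 32851 promoter windows of this length in the table, 11.9% held a forkhead word, 4.94% the SPDEF core and 7.59% TATAAA. Foxa3 also had TATAAA, and the Agr2 and Fcgbp windows held none of these letters. A match is a description of the letters only.

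All 10 genes were at their highest in SS-31H_CS replicate 2, 9 of them with more than 3 counts there (the exception was Tff1, with 2). The 7 tested members were among the 16.8% of all tested genes that were highest in that library. In 5 of the 10 genes, Clca1 (not tested), Muc5ac, Tff2, Agr2 and Muc5b, that library exceeded the highest of the other 5 by 4-fold or more. No member was called different between the groups: 0 of the 7 with enough counts to be tested passed in edgeR (quasi-likelihood test, p adjusted by Benjamini-Hochberg over all genes, threshold 0.05). Of all 16965 tested genes, 0.153% passed, 0.0707% as higher and 0.0825% as lower. DESeq2, by which 5.74% of genes with an adjusted p passed, and limma voom also called 0 members. DESeq2 gave no adjusted p for 5 of the 10 members (Muc5ac, Agr2, Clca1, Foxa3 and Tff1), so it could not have called these. Before adjustment, 4 members (Muc5ac, Tff2, Muc4 and Spdef, all higher) had an edgeR p under 0.05, as had 18.2% of all tested genes in either direction and 9.93% as higher. The median log2 fold change of the 7 was 1.56, against 0.01 over all tested genes, and it was 0.14 without SS-31H_CS replicate 2. Foxa3, Clca1 and Tff1 did not pass the low-count filter.

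**Figure D1:**
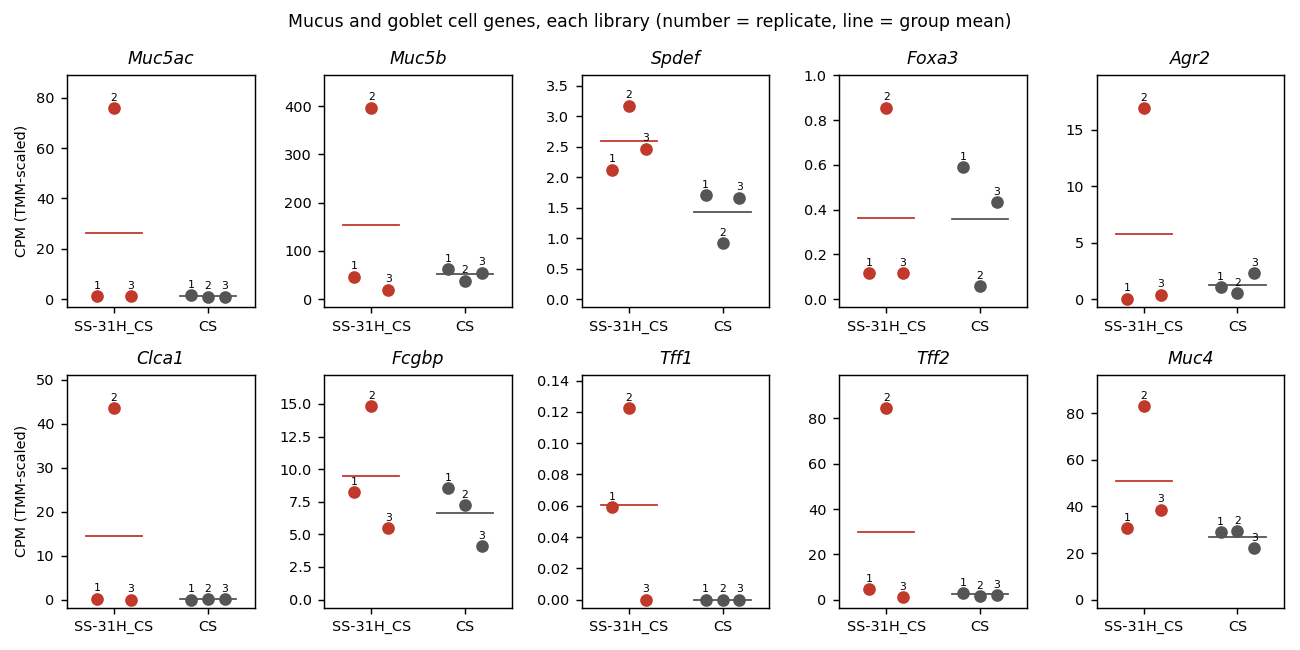
Normalised level in CPM (vertical axis, a separate scale for each gene) of the 10 mucus and goblet cell genes in the SS-31H_CS and CS groups. Each point is a library, numbered by replicate, and each line is the group mean. SS-31H_CS replicate 2 is the highest point in all 10 panels, and its Clca1 (43.5 CPM), Muc5ac (75.9 CPM) and Tff2 (84.5 CPM) values sit far above the other 5.

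Muc5ac encodes the secreted mucin that marks goblet cells (ENSMUSG00000037974, GRCm38 chromosome 7, 141788972 to 141819231, plus strand). It had 1.36, 75.9 and 1.29 CPM in SS-31H_CS replicates 1, 2 and 3, against 1.53, 1.03 and 1.05 CPM in CS replicates 1, 2 and 3. In counts these were 23, 1242 and 22 in SS-31H_CS, against 26, 18 and 17 in CS. The CS libraries and SS-31H_CS replicates 1 and 3 lay close together, and SS-31H_CS replicate 2 stood 49.5-fold above the highest of them. The fitted log2 fold change was 4.43 (SE 1.55, edgeR adjusted p = 0.203), and without SS-31H_CS replicate 2 it was 0.14 (SE 0.37, edgeR adjusted p = 0.885). DESeq2 withheld a p-value for Muc5ac and for Agr2, which it does where a single count is extreme.

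Muc5b encodes the mucin that mouse airways secrete constitutively, from the same strand of the same chromosome (ENSMUSG00000066108, 141839070 to 141873084). Its levels were 46.9, 397 and 19.9 CPM in SS-31H_CS replicates 1, 2 and 3, against 62.6, 38.8 and 55.3 CPM in CS replicates 1, 2 and 3. The SS-31H_CS group held both the highest and the lowest library, and the CS values fell between them. With all libraries the log2 fold change was 1.56 (SE 0.92, edgeR adjusted p = 0.404). It turned to -0.65 (SE 0.37, edgeR adjusted p = 0.453) without SS-31H_CS replicate 2.

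Levels of different genes were compared per length, in the deposited FPKM (counts scaled by transcript length and library total). Muc5ac stood at 0.0414, 0.266 and 0.0902 of the Muc5b level in SS-31H_CS replicates 1, 2 and 3, against 0.0340, 0.0383 and 0.0256 in CS replicates 1, 2 and 3. The ratio was highest in the library with the most of both mucins. The next highest ratio, in SS-31H_CS replicate 3, came with the lowest Muc5b level (1.33 FPKM) and 0.12 FPKM of Muc5ac, a value within the range of 0.09 to 0.14 FPKM seen in the other 4 libraries.

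**Figure D2:**
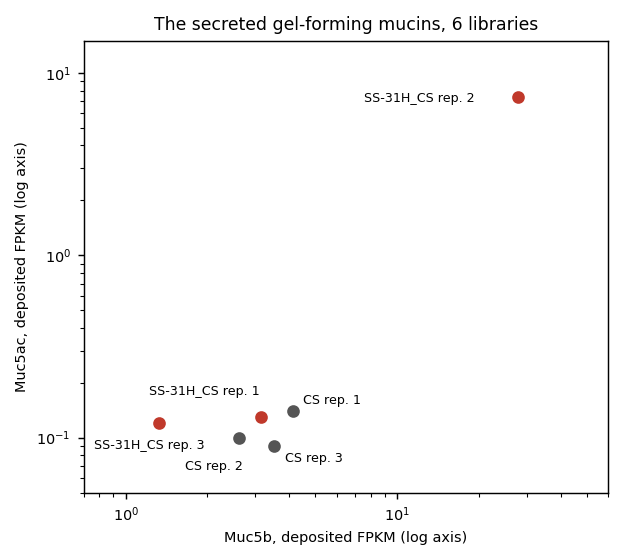
Deposited FPKM of Muc5ac (vertical log axis) against Muc5b (horizontal log axis), one point per library, with SS-31H_CS in red and CS in grey. SS-31H_CS replicate 2 lies alone at 27.8 FPKM of Muc5b and 7.40 FPKM of Muc5ac, and the other 5 libraries lie at 1.33 to 4.12 FPKM of Muc5b and 0.09 to 0.14 FPKM of Muc5ac.

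Muc4 encodes a membrane-tethered mucin of the airway surface (ENSMUSG00000079620, chromosome 16, 32735886 to 32782391, plus strand). It measured 30.7, 83.2 and 38.7 CPM in SS-31H_CS replicates 1, 2 and 3, against 28.9, 29.5 and 22.0 CPM in CS replicates 1, 2 and 3. Every SS-31H_CS library was above every CS library, though replicate 1 of SS-31H_CS exceeded the highest CS library only slightly. The log2 fold change was 0.92 (SE 0.34, edgeR adjusted p = 0.225), and 0.37 (SE 0.18, edgeR adjusted p = 0.387) without SS-31H_CS replicate 2. By DESeq2 its adjusted p was 0.0734, the lowest among the members. Exons of Muc20, on the other strand, cover 5.33% of the Muc4 exon length, and the strand setting of the counting is not given in the sources used here.

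Spdef (ENSMUSG00000024215, chromosome 17, 27714352 to 27728955, minus strand) was the other gene whose groups did not overlap. It had 2.13, 3.18 and 2.47 CPM in SS-31H_CS replicates 1, 2 and 3, against 1.71, 0.917 and 1.67 CPM in CS replicates 1, 2 and 3. These rest on 36, 52 and 42 counts in SS-31H_CS and on 29, 16 and 27 counts in CS. The log2 fold change of 0.85 (SE 0.34, edgeR adjusted p = 0.244) was 0.68 (SE 0.38, edgeR adjusted p = 0.442) without SS-31H_CS replicate 2. Spdef was thus the tested member whose estimate depended least on that library. Of 7 tested members, 2 (Muc4 and Spdef) had higher, non-overlapping values in SS-31H_CS. Of all tested genes, 13.6% had such values and 26.1% did not overlap in either direction. An exact permutation test of 3 against 3 libraries cannot give a two-sided p below 0.1.

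Foxa3 encodes a forkhead factor that promotes goblet cell differentiation (ENSMUSG00000040891, chromosome 7, 19013284 to 19023538, minus strand). It had 2, 14 and 2 counts in SS-31H_CS replicates 1, 2 and 3, against 10, 1 and 7 counts in CS replicates 1, 2 and 3. Several of these are at or below 3 counts, and the group means, 0.364 ± 0.426 CPM in SS-31H_CS and 0.360 ± 0.274 CPM in CS (SD, n = 3 each), differed by less than the spread. No difference in Foxa3 was detectable at this depth.

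Agr2 (ENSMUSG00000020581, chromosome 12, 35992907 to 36004087, plus strand) had 1, 277 and 7 counts in SS-31H_CS replicates 1, 2 and 3, against 18, 9 and 37 counts in CS replicates 1, 2 and 3. In CPM these were 0.0591, 16.9 and 0.412 in SS-31H_CS and 1.06, 0.516 and 2.28 in CS. The SS-31H_CS lungs thus held the highest library and the lowest pair. The log2 fold change was 2.17 (SE 1.43, edgeR adjusted p = 0.452) and turned to -2.41 (SE 0.91, edgeR adjusted p = 0.314) without SS-31H_CS replicate 2. Agr2 was the sole tested member with an unadjusted p under 0.05 in that smaller comparison.

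**Figure D3:**
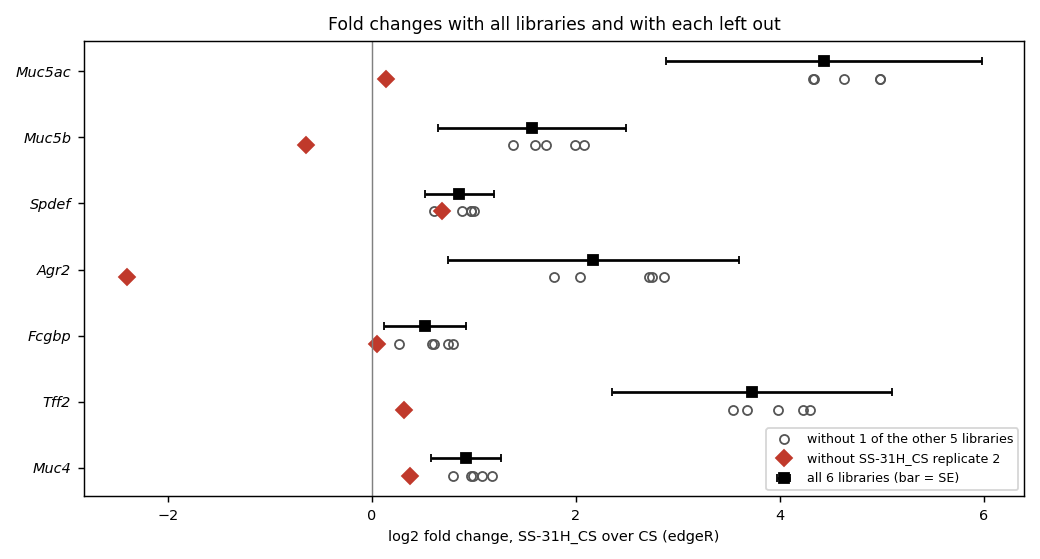
Log2 fold change of SS-31H_CS over CS (horizontal axis) for the 7 tested members, each on its own line. Squares with bars are the estimate and SE from all 6 libraries, open circles the estimates without each of 5 libraries in turn, and diamonds those without SS-31H_CS replicate 2. The diamonds lie at 0.14 for Muc5ac, -0.65 for Muc5b, -2.41 for Agr2 and 0.31 for Tff2, apart from the circles, and the Spdef diamond (0.68) lies among its circles.

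Clca1 encodes a secreted metalloprotease that is abundant in goblet cell mucus (ENSMUSG00000028255, chromosome 3, 145003817 to 145032776, minus strand). It had 4, 712 and 0 counts in SS-31H_CS replicates 1, 2 and 3, against 0, 3 and 2 counts in CS replicates 1, 2 and 3. The 712 counts, 43.5 CPM, made up 98.8% of all Clca1 counts, and 4 of the other libraries were at or under 3 counts. With all genes tested regardless of counts, Clca1 passed (log2 fold change 7.08, edgeR adjusted p = 0.0363), as did Muc5ac (edgeR adjusted p = 0.0400), where 2.20% of 29410 genes passed. Both then rested on a single library, and DESeq2 withheld the p-value of Clca1 as well.

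Tff2 and Tff1 encode trefoil peptides, small secreted proteins that accompany mucins, from the minus strand of chromosome 17. Tff2 (ENSMUSG00000024028, 31141049 to 31144282) was at 4.67, 84.5 and 0.941 CPM in SS-31H_CS replicates 1, 2 and 3, against 3.01, 1.66 and 2.10 CPM in CS replicates 1, 2 and 3. As with Muc5b and Agr2, the SS-31H_CS libraries lay both above and below the CS range. The log2 fold change was 3.73 (SE 1.37, edgeR adjusted p = 0.221) with all libraries and 0.31 (SE 0.63, edgeR adjusted p = 0.840) without SS-31H_CS replicate 2. Tff1 (ENSMUSG00000024032, 31161395 to 31165277) had 1, 2 and 0 counts in SS-31H_CS and none in the 3 CS libraries, so both groups were at or under 3 counts in every library and no fold is given.

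Fcgbp encodes a large mucus protein with von Willebrand factor D domains (ENSMUSG00000047730, chromosome 7, 28071236 to 28120862, plus strand). It was at 8.22, 14.9 and 5.47 CPM in SS-31H_CS replicates 1, 2 and 3, against 8.56, 7.22 and 4.08 CPM in CS replicates 1, 2 and 3. Apart from the highest library, the groups covered the same range. Its log2 fold change of 0.52 (SE 0.40, edgeR adjusted p = 0.514) was 0.05 (SE 0.36, edgeR adjusted p = 0.964) without SS-31H_CS replicate 2. Stretches of 50 bases shared with the neighbouring family member 9530053A07Rik make up 8.55% of its longest transcript, so its counts are less certain. The other 9 members shared no such stretch with another annotated transcript read in its own direction. Opposite-strand sequence was not compared in this way. Exons of Gm15318, on the other strand, cover 31.4% of the Tff1 exon length.

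Among CS lungs the order of levels per length began with Tff2 (3.78 ± 1.16 FPKM) and Muc5b (3.41 ± 0.760 FPKM), whose ranges overlapped, followed by Muc4 at 2.24 ± 0.401 FPKM (SD, n = 3 each). Agr2 (0.963 FPKM), Fcgbp (0.620 FPKM) and Spdef (0.607 FPKM) came next, with ranges that overlapped each other. Foxa3, Muc5ac, Clca1 and Tff1 had means of 0.173 FPKM or less. In SS-31H_CS replicate 2 the order was different. Tff2 led with 152 FPKM, Muc5b followed with 27.8 FPKM, and Agr2 (13.7 FPKM) and Clca1 (12.1 FPKM) were above Muc4 (7.41 FPKM) and Muc5ac (7.40 FPKM). The 10 genes together summed to 15.9, 224 and 8.35 FPKM in SS-31H_CS replicates 1, 2 and 3, against 14.4, 9.66 and 11.8 FPKM in CS replicates 1, 2 and 3.

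How far SS-31H_CS replicate 2 stood apart was also counted over the whole table, a count added after the member values were seen. Of 15768 genes whose mean reached 1 CPM, 25 (0.159%) were at least 4-fold higher in that library than in any other, and 5 of these were mucus genes. The corresponding numbers were 0 and 1 for SS-31H_CS replicates 1 and 3, and 4, 1 and 17 for CS replicates 1, 2 and 3. No mucus gene was among the genes of those libraries. The mean was taken over all libraries, so a gene could reach 1 CPM through a single high library. Clca1 did so through SS-31H_CS replicate 2, with 0 to 0.236 CPM in the others. So did Agr2, with 0.0591 to 2.28 CPM (median 0.516 CPM) in the others. Itln1, Dmbt1, Ccl20 and Cxcl5, named below, also reached 1 CPM only through that library. The count is therefore a description and no test. The 25 also included Itln1, which encodes the lectin intelectin 1, and Dmbt1, a secreted scavenger receptor gene. Itln1 had 1, 285 and 0 counts in SS-31H_CS and 1, 0 and 9 counts in CS. Dmbt1 had 1, 270 and 1 counts in SS-31H_CS and 2, 1 and 13 counts in CS. The epithelial chemokine genes Ccl20 (0.946, 38.7 and 0.118 CPM in SS-31H_CS, against 0.413, 0.745 and 0.432 CPM in CS) and Cxcl5 (0.887, 9.59 and 0.470 CPM, against 0.590, 1.20 and 1.11 CPM) were among them as well. So were Gp2, a surface receptor gene known from M cells, with 0.591, 87.1 and 0.294 CPM in SS-31H_CS, against 1.30, 1.60 and 8.34 CPM in CS, and the interferon-induced chemokine gene Cxcl9, with 1.24, 28.7 and 0.353 CPM, against 1.95, 2.64 and 3.09 CPM.

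Among products of other airway secretory cells, 9 of a list of 14 genes were tested and 0 passed by edgeR. DESeq2 called 1, and 2 had an edgeR p under 0.05 before adjustment. Of the 9, 5 were highest in SS-31H_CS replicate 2. The list's median log2 fold change was 0.90, and -0.34 without that library. Lypd2, a secretory cell gene, was at 38.8, 33.9 and 34.5 CPM in SS-31H_CS, against 19.9, 17.4 and 14.1 CPM in CS (log2 fold change 1.06, SE 0.15, edgeR adjusted p = 0.0554). It was the gene of this list that DESeq2 called, and its level in SS-31H_CS replicate 2 was the lowest of its group. Pigr, which encodes the receptor that carries IgA across epithelium, was at 38.4, 291 and 75.4 CPM in SS-31H_CS, against 36.2, 35.5 and 38.2 CPM in CS (1.88, SE 0.63, edgeR adjusted p = 0.192, and 0.63 without SS-31H_CS replicate 2). The resistin-like gene Retnla was at 75.3, 375 and 79.0 CPM in SS-31H_CS, against 78.3, 77.3 and 103 CPM in CS (1.03, edgeR adjusted p = 0.381, and -0.16 without SS-31H_CS replicate 2).

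In the same list, Reg3g, Bpifb1 and Bpifa1 were lowest in SS-31H_CS replicate 3, as were Ltf (47.9 CPM there) and Lcn2 (118 CPM there). The other tested genes of the list, Lypd2, Pigr, Retnla and Azgp1, were not. The antimicrobial lectin gene Reg3g was at 23.7, 475 and 1.53 CPM in SS-31H_CS, against 44.6, 13.5 and 88.6 CPM in CS. Bpifb1, a secreted protein of mucous cells, was at 69.3, 293 and 5.65 CPM in SS-31H_CS, against 71.2, 35.8 and 90.0 CPM in CS. Bpifa1, a secreted airway surface protein, differed from these in that replicate 2 was not high: its levels were 220, 79.0 and 5.29 CPM in SS-31H_CS, against 179, 93.1 and 169 CPM in CS. Muc5b and Tff2 were at their lowest in SS-31H_CS replicate 3 too.

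**Figure D4:**
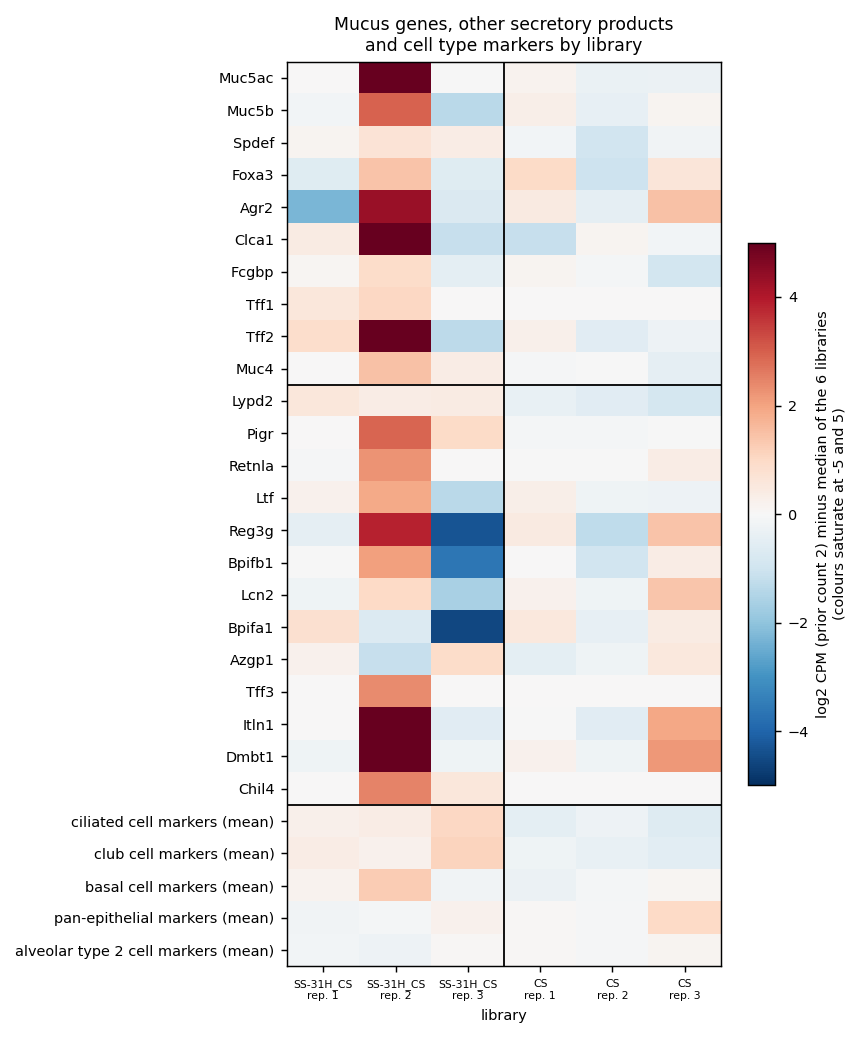
Log2 CPM (prior count 2) minus the median of the 6 libraries, by colour, for the 10 mucus genes (top block), the secretory products of the fixed list that had counts (middle block) and the mean over 5 cell type marker lists (bottom block), with SS-31H_CS libraries left and CS libraries right. The SS-31H_CS replicate 2 column is red in most of the upper 2 blocks, and the SS-31H_CS replicate 3 column is blue for Reg3g, Bpifb1 and Bpifa1 while its ciliated and club cell rows are red.

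The cell type markers took other courses. The 12 ciliated cell markers summed to 832, 894 and 1275 CPM in SS-31H_CS replicates 1, 2 and 3, against 618, 604 and 447 CPM in CS replicates 1, 2 and 3, and 0 of 12 passed by edgeR. All 12 had an edgeR p under 0.05 before adjustment and DESeq2 called 10. Foxj1, the master regulator gene of motile cilia, was at 110 to 199 CPM in SS-31H_CS and 52.6 to 67.9 CPM in CS, and the ciliated cell gene Tppp3 at 418 to 551 CPM and 225 to 385 CPM. The 7 club cell markers, led by Scgb1a1, summed to 38352, 27497 and 62658 CPM in SS-31H_CS, against 28610, 23866 and 23534 CPM in CS, and 1 passed, Scgb3a2, with 608 to 906 CPM in SS-31H_CS and 250 to 309 CPM in CS (log2 fold change 1.44, SE 0.18, edgeR adjusted p = 0.0467). That call was lost when any 1 of the 6 libraries was left out (edgeR adjusted p 0.0720 to 0.167), with log2 fold changes of 1.32 to 1.59. Of all 16 alternatives 5 called Scgb3a2, and its log2 fold change stayed within 1.32 to 1.59 in each. Scgb1a1 was at 21245 to 48062 CPM in SS-31H_CS and 18291 to 23014 CPM in CS. Of the 7 club cell markers, 6 were higher with an edgeR p under 0.05 before adjustment, and DESeq2 called 4. The ciliated and club cell lists were both highest in SS-31H_CS replicate 3, where Muc5b was lowest. Other members differed from Muc5b there: Muc4 (38.7 CPM) and Spdef (2.47 CPM) were second only to SS-31H_CS replicate 2. Basal cell markers, all low, summed to 3.9, 10.8 and 3.7 CPM in SS-31H_CS, against 3.0, 3.4 and 4.3 CPM in CS, so they were highest in the library that was highest for mucus genes. The defining basal cell gene Krt5 had 0, 15 and 0 counts in SS-31H_CS, against 1, 0 and 11 counts in CS, and Krt14 had 26, 14 and 9 counts, against 8, 14 and 7 counts. Serous and gland cell markers, a list that shares Ltf, Bpifa1 and Dmbt1 with the secretory products, summed to 893, 1702 and 522 CPM in SS-31H_CS, against 853, 679 and 820 CPM in CS. Neuroendocrine markers summed to 9.3 to 11.2 CPM in SS-31H_CS and 7.7 to 9.6 CPM in CS, and pan-epithelial markers to 996 to 1245 CPM and 1116 to 3049 CPM. The pan-epithelial sums of CS replicates 1, 2 and 3 were 1233, 1116 and 3049 CPM, so the high value was that of replicate 3 alone. Of the 6 pan-epithelial markers, 3 had a positive and 3 a negative log2 fold change. Alveolar type 1 markers summed to 4234 to 5288 CPM in SS-31H_CS and 5487 to 6179 CPM in CS. Endothelial markers summed to 2440 to 3434 CPM in SS-31H_CS and 3721 to 4556 CPM in CS. EdgeR called 0 genes in the neuroendocrine, pan-epithelial, alveolar type 1 and endothelial lists. All 5 endothelial markers had a negative log2 fold change, and DESeq2 called 2. Before adjustment 4 of them had an edgeR p under 0.05, as had 18.2% of all tested genes in either direction. Every SS-31H_CS library lay above every CS library for Spdef and Muc4 and for all 12 ciliated markers. The same held for 4 of 7 club cell, 2 of 4 tested neuroendocrine and 0 of 4 tested basal cell markers. It also held for 13.6% of all tested genes. The reverse, every SS-31H_CS library below every CS library, held for 3 of 5 endothelial and 2 of 6 pan-epithelial markers. It also held for 2 of 8 alveolar type 2 and 1 of 5 tested alveolar type 1 markers. In either direction, 26.1% of all tested genes did not overlap. The part of any of these cell types in the mucus gene values was not tested.

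Markers of other tissues were also summed, since stomach makes several of these mucus genes. In the gastric list, Gkn1 and Gkn2 had 0 counts in all 6 libraries, Atp4a had 3 counts in CS replicate 3 alone and Atp4b had 1 count in CS replicate 2 alone. Pdpn, a gene of the alveolar type 1 marker list, also had 0 counts in all 6 libraries. A count of 0 here therefore need not mean that a transcript was absent. The chitinase gene Chia1, which lung also expresses, made up the rest of that list, with 85.3 to 144 CPM in SS-31H_CS, against 104 to 132 CPM in CS. Squamous epithelium markers summed to 2.6 to 2.8 CPM in SS-31H_CS and 2.1 to 3.1 CPM in CS, and thyroid markers to 2.1 to 2.5 CPM and 2.9 to 3.8 CPM. Mesothelial markers summed to 452 to 708 CPM in SS-31H_CS and 466 to 730 CPM in CS. Mast cell and eosinophil markers summed to 9.6 to 14.2 CPM and 10.4 to 17.5 CPM, with Epx, which defines eosinophils, at 0 to 3 counts.

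Of 9 other mucin genes, 6 were tested and 0 passed by edgeR, with 2 higher at p under 0.05 before adjustment and 1 called by DESeq2. Their median log2 fold change was 0.30 (0.13 without SS-31H_CS replicate 2), and 3 of the 6 were highest in SS-31H_CS replicate 2. Muc20, a membrane mucin gene that lies beside Muc4, was at 8.39, 17.7 and 15.9 CPM in SS-31H_CS, against 6.79, 6.30 and 7.10 CPM in CS (log2 fold change 1.06, SE 0.28, edgeR adjusted p = 0.134, DESeq2 adjusted p = 0.0134). Muc1, a membrane mucin of alveolar and airway epithelium, was at 212.5, 238 and 315 CPM in SS-31H_CS, against 221, 186 and 177 CPM in CS (0.39, SE 0.17, edgeR adjusted p = 0.273). Muc6, a gland mucin gene, was at 4.20, 1.71 and 1.71 CPM, against 3.54, 2.64 and 6.11 CPM (edgeR adjusted p = 0.454). Muc2, the intestinal gel-forming mucin gene, and Muc15 had 0 counts in all 6 libraries, which, given the 0 counts of Pdpn, need not mean absence.

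Enzymes that build mucin glycans gave 0 edgeR calls among 15 tested genes, with a median log2 fold change of -0.03 (-0.08 without SS-31H_CS replicate 2). Before adjustment 1 was higher and 1 lower at p under 0.05, and DESeq2 called 1. The sialyltransferase gene St3gal1 was at 188.5, 178 and 140 CPM in SS-31H_CS, against 238, 228 and 263 CPM in CS (log2 fold change -0.52, SE 0.14, edgeR adjusted p = 0.137). Galnt12, which starts O-glycans, was at 5.91, 8.92 and 6.88 CPM in SS-31H_CS, against 4.31, 5.90 and 4.20 CPM in CS (0.59, SE 0.24, edgeR adjusted p = 0.254). The sialyltransferase gene St6galnac2 had a log2 fold change of -0.20 (edgeR adjusted p = 0.307).

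Of 16 tested genes for mucin folding and granule release, 0 passed by edgeR and DESeq2 called 1. Before adjustment 6 were lower at p under 0.05. Beside such counts in this and the other lists, 18.2% of all tested genes had such a p in either direction, and 9.93% as higher. The log2 fold change was negative for 14 of the 16, and the median was -0.27 (-0.35 without SS-31H_CS replicate 2), against 0.01 over all tested genes. Rab27a, a granule-docking GTPase gene, was at 77.7, 68.6 and 67.0 CPM in SS-31H_CS, against 111, 104 and 95.5 CPM in CS (log2 fold change -0.54, SE 0.11, edgeR adjusted p = 0.0926, DESeq2 adjusted p = 0.0034). The secretory stress factor gene Creb3l1 had a log2 fold change of -0.38 (edgeR adjusted p = 0.187). Most of these genes act in secretion in many lung cell types. Ern2, the stress sensor of mucous cells, had 5, 19 and 0 counts in SS-31H_CS, against 7, 7 and 1 counts in CS.

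The interleukin 4 and interleukin 13 axis gave 0 edgeR calls among 12 tested genes, and DESeq2 called 2. Before adjustment 3 were higher and 3 lower at p under 0.05, and the median log2 fold change was -0.11 (-0.17 without SS-31H_CS replicate 2). Il13 itself had 1, 2 and 0 counts in SS-31H_CS, against 0, 1 and 0 counts in CS, so no difference could be seen at this depth. Il4 was at 2.19, 3.30 and 4.53 CPM in SS-31H_CS, against 1.83, 1.66 and 1.42 CPM in CS (log2 fold change 1.02, SE 0.33, edgeR adjusted p = 0.179). Il4ra, the receptor subunit shared by both cytokines, was at 212, 159 and 105 CPM in SS-31H_CS, against 322, 315 and 393 CPM in CS (log2 fold change -1.11, SE 0.24, edgeR adjusted p = 0.0994, DESeq2 adjusted p = 0.000331). The groups did not overlap, and SS-31H_CS replicate 2 lay between the other treated libraries. Il13ra1, the interleukin 13 receptor subunit, was at 49.8, 52.0 and 47.9 CPM, against 69.9, 59.6 and 66.2 CPM (-0.39, SE 0.10, edgeR adjusted p = 0.137). The eosinophil chemokine gene Ccl11 was at 1.83, 2.87 and 1.59 CPM in SS-31H_CS, against 0.472, 0.458 and 0.803 CPM in CS (1.85, SE 0.40, edgeR adjusted p = 0.0994). Stat6 had a log2 fold change of 0.02 (edgeR adjusted p = 0.930).

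The epidermal growth factor receptor, another known route to mucin induction, and its ligands gave 0 edgeR calls among 12 tested genes, and DESeq2 called 2. Before adjustment 3 were lower at p under 0.05, where 18.2% of all tested genes had such a p in either direction and 9.93% as higher. The median log2 fold change was -0.39 (-0.41 without SS-31H_CS replicate 2). Its ligand gene Hbegf was at 46.6, 43.4 and 42.2 CPM in SS-31H_CS, against 76.7, 67.4 and 160 CPM in CS (log2 fold change -1.20, SE 0.30, edgeR adjusted p = 0.127). Egfr was at 17.4, 24.3 and 21.0 CPM, against 29.9, 27.8 and 34.3 CPM (-0.55, SE 0.15, edgeR adjusted p = 0.144). The ligand-shedding protease gene Adam17 had a log2 fold change of -0.26 (edgeR adjusted p = 0.217).

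Regulators of secretory cell fate gave 0 edgeR calls among 15 tested genes, and DESeq2 called 2. Before adjustment 5 were higher and 1 lower at p under 0.05, and the median log2 fold change was 0.32 (0.30 without SS-31H_CS replicate 2). Notch1, whose signalling favours secretory over ciliated cells, was at 194, 176 and 170 CPM in SS-31H_CS, against 234, 283 and 250 CPM in CS (log2 fold change -0.50, SE 0.12, edgeR adjusted p = 0.113). Sox2, a factor of airway epithelium, was at 9.69, 20.4 and 25.2 CPM, against 7.91, 9.00 and 7.66 CPM (1.17, SE 0.32, edgeR adjusted p = 0.140). The epithelial ETS factor gene Elf3 was at 28.3, 47.8 and 32.0 CPM in SS-31H_CS, against 22.6, 22.8 and 25.6 CPM in CS (0.61, SE 0.19, edgeR adjusted p = 0.179, and 0.35 without SS-31H_CS replicate 2), and like the mucus genes it was highest in replicate 2.

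For each member whose mean reached 1 CPM, the 3 genes most like it across the 6 libraries were found among 15756 genes by Pearson's r of log2 CPM as a description, since the points are few and share libraries. Muc5ac was closest to Rgs1 (r = 0.989), 2810405F17Rik and Tma7, and Muc5b to B4galnt4 (r = 0.981), Foxp3 and Mdfic. Tff2 was closest to Foxp3 (r = 0.980), Gm10073 and Ccl20, and Clca1 to Gdf6 (r = 0.994), Ccl20 and Cxcl5. Agr2 was closest to Nrip1 (r = 0.986), Gm37305 and Sp140, Fcgbp to Gm6274 (r = 0.999), Crybg1 and Ccne1, Muc4 to Gm26917 (r = 0.993), Cd3e and Cirbp, and Spdef to Rpl29 (r = 0.993), Mpg and Rpl21. Without SS-31H_CS replicate 2, r over the 5 remaining libraries was 0.455 between Muc5ac and 2810405F17Rik, and 0.768 to 0.997 for the other 23 pairs (median of all 24 pairs, 0.931). The pairs were chosen by r over all 6 libraries, which include these 5, so high values were partly fixed by the choice. For Clca1 the 5 remaining libraries held only 0 to 4 counts.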

How the data were processed

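Lung RNA of 6 libraries was sequenced. For each library the deposited values are whole read counts by Ensembl gene, with FPKM made by the authors beside them. The submitters' processing notes name cutadapt 1.9.1, HISAT2 2.0.1, HTSeq 0.6.1 and GRCm38. The annotation release, strand setting and any filter are not given in the sources used here. In 3310 highly counted genes (above 1000), deposited FPKM divided by counts followed the library totals to within 0.389%. Symbols and coordinates came from GENCODE M21 by Ensembl identifier (55394 of 55573 matched).

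SS-31H_CS was compared with CS by edgeR 4.0.16 in R 4.3.3: quasi-likelihood test on counts, TMM normalization, filterByExpr (minimum count 10, minimum total 15), two-sided, Benjamini-Hochberg over all 16965 tested genes, called at an adjusted p under 0.05. Fold changes are SS-31H_CS over CS on the log2 scale, SE is the fold change over the root of the F statistic, and CPM use TMM-scaled library sizes. The alternatives were RLE size factors, library size alone, other low-count filters, DESeq2 1.42.0, limma 3.58.1 (voom, and trend on log2(FPKM + 1) or log2(FPKM + 0.1)), the replicate number as a block, and each library left out. With a library left out, the pair left in its group is assumed to vary like the other group.

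The members, the 7 pathway lists and the 14 marker lists were chosen with earlier results of these data known. Named were all members, the 3 genes of lowest p per pathway list, the marker sums with the first 2 genes of the airway and gastric lists (the other lists by their sums only), and the 3 genes closest to each member. One gene that the rule names is not reported here. Genes outside this rule and the library counts of 4-fold or highest genes were chosen after values were seen. St6galnac2 has 2 identifiers, and the value given is that of lower p, and Prr4 and Cblif matched none. Replicates differed beyond sampling noise in every pair.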

Additional observations from a re-analysis of the deposited data

How the results depend on the processing

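The number of mucus genes called was 0 under every setting tried except testing without a low-count filter, where 2 (Clca1 and Muc5ac) were called. For DESeq2 that 0 covers only members with an adjusted p, which 5 of the 10 lacked. The number of pathway genes called, also 0, was 10 by DESeq2 and 8 without the filter, and 0 under the others. Over all genes, 26 changed. The number was 939 by DESeq2, 648 without the filter, 12 with library size alone, 6 by voom, 6 on log2(FPKM + 1), 5 on log2(FPKM + 0.1), 4 on log2(FPKM + 1) without a filter, and 1 to 15 with a library left out (15 without CS replicate 3, and 1 or 2 without any other library). The 112 alternative fold changes of the 7 tested members kept their sign and their side of the threshold in 108 cases, and Muc5ac passed without the filter. Among those 108, DESeq2 gave no p for Muc5ac and Agr2. Sizes moved more. Muc5ac, at 4.43, was 0.99 on log2(FPKM + 1), 1.79 on log2(FPKM + 0.1), 2.06 by voom and 2.39 with the block. In the same order Tff2, at 3.73, was 1.71, 1.77, 1.69 and 1.84, and Muc5b, at 1.56, was 0.58, 0.55, 0.49 and 0.33. Agr2, at 2.17, was 0.53 on log2(FPKM + 1), 0.04 on log2(FPKM + 0.1) and 0.09 with the block. Fcgbp, at 0.52, was 0.23 and Spdef, at 0.85, was 0.42 on log2(FPKM + 1). Scgb3a2 was not called by voom (adjusted p 0.0543), on FPKM (0.0773 to 0.208) or with the block (0.145). The 3 reversals were Agr2 by voom (-0.36), and Agr2 and Muc5b without SS-31H_CS replicate 2. With a library left out, Agr2 ran from -2.41 to 2.86 and Muc5b from -0.65 to 2.08. Same-numbered libraries did not deviate together (correlations 0.01, 0.04 and -0.06). Low correlations cannot exclude that the numbers pair the samples, and the labels do not say. With the replicate number as a block, 0 genes were called. The causes of these differences were not tested. Depth limits Foxa3, Tff1 and Il13, which had few counts in every library, and Agr2, with 1 to 37 counts outside SS-31H_CS replicate 2.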
